A study of Mus musculus with 6 samples.

Results

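The genes described here are the mouse matrix metalloproteinases, the secreted ADAMTS proteases with their ADAMTS-like relatives, and the TIMPs, their tissue inhibitors. They were chosen by symbol: all protein-coding genes named Mmp, Adamts, Adamtsl or Timp followed directly by a number. This rule found 51 of the 21631 protein-coding genes on chromosomes 1 to 19 and X, of which 23 were Mmp, 19 Adamts, 5 Adamtsl and 4 Timp genes. A peak was assigned to the protein-coding gene whose span was nearest to its summit, within 100 kb. Open chromatin had been mapped by ATAC-seq, in which a transposase tags accessible DNA, in marrow MSPCs, the mesenchymal stem and progenitor cells. The DOX group, 3 libraries, came from mice that had received 4 intravenous doses of doxorubicin, a DNA-damaging chemotherapy drug, at 5 mg/kg with 1 week between doses. The PBS group, also 3 libraries, had received 4 intravenous injections of saline (PBS). All mice were female Lepr-Cre;LSL-tdTomato+/- animals aged 8 to 10 weeks at treatment, and cells were collected 8 weeks after it. The tdTomato reporter used for sorting is switched on by Cre from the leptin receptor gene, so cells outside that lineage were not sampled by design. How many mice were used for a library is not stated.

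MMPs and ADAMTS proteases are zinc enzymes that cut proteins of the extracellular matrix, and most are made as inactive precursors. MMPs cleave collagens, gelatin, elastin and many cell-surface proteins, while ADAMTS members trim procollagens, split the large proteoglycans aggrecan and versican, or act on microfibrils. TIMPs block the active site of these enzymes. In bone marrow, stromal cells of the leptin receptor lineage lay down much of the matrix around sinusoids and are a source of bone and fat cells, and matrix remodelling is part of both fates.

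The measurements were lists of peaks, called in each library separately, in mm10 coordinates. The lists differed in length and depth, so the 65462 strongest peaks of each library by −log10 p, the length of the shortest list, were compared. The background pileup is the background level of the caller that the peak scores imply. It was 1.72, 1.67 and 2.22 in the DOX libraries and 1.27, 1.10 and 0.558 in the PBS libraries. Every DOX library was deeper than every PBS library, so depth and treatment cannot be told apart. A fit with this background pileup as a covariate cannot fully separate them either, because it follows the groups. PBS replicate 3 stood apart as the shallowest library, and its list, the shortest, was kept whole. Its median peak width was 328 bp, against 439 to 542 bp in the cut lists of the others. In their uncut lists the median was 337 to 389 bp, so much of the gap in width came with the cut. Markers of the labelled cell type were mostly open: 8 to 9 of 10 MSPC markers had an open gene end, a peak summit within 1 kb of it, in each library, with Prrx1 alone lacking one in all 6. The same was so for 3 to 4 of 13 neutrophil and macrophage markers, 2 to 3 of 7 endothelial markers, 1 of 7 B cell markers and 1 of 6 T and NK cell markers. It was so for 2 to 3 of 6 erythroid and megakaryocyte markers and 3 of 6 bone and cartilage markers. No peak lay at a gene end of Ly6g, Mpo, Itgam, Csf1r, Pecam1, Cdh5, Cd79a or Cd3e in any library.

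The promoters fell into different sequence classes, and the Mmp cluster on chromosome 9 held most of those whose gene start was open in no library. A RefSeq promoter was at hand for 36 of the 51 genes, with 39 promoters in all (build GRCm38.p6, the assembly that mm10 displays), and the 250 bases before each start were searched for 4 motifs. These were TGANTCA, the site of AP-1, GGGCGG, the GC box bound by SP factors, and TGTGGT, the core of RUNX sites, each on both strands, and TATAAA, the TATA box, on the strand of the gene. No motif overlapped a different motif in these promoters. The sequences are those of the collagenase gene Mmp13 and the stromelysin gene Mmp3 of the Mmp cluster on chromosome 9, the membrane protease gene Mmp14, the inhibitor gene Timp1 and the procollagen protease gene Adamts14, all 5′ to 3′ on the strand of the gene. Capitals mark the motifs, which on the opposite strand read CCGCCC for the GC box and ACCACA for the RUNX core.
Mmp13 (chr9:7272264-7272513, plus strand): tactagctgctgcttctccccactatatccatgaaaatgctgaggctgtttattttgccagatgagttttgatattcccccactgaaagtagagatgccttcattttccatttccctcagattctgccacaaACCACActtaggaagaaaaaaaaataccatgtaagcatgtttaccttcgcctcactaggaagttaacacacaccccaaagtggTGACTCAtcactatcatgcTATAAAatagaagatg
Mmp3 (chr9:7445572-7445821, plus strand): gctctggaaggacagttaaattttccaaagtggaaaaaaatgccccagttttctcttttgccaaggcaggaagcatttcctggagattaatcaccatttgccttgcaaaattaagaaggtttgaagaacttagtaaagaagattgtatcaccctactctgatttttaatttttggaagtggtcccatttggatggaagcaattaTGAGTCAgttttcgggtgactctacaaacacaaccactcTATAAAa
Mmp14 (chr14:54431348-54431597, plus strand): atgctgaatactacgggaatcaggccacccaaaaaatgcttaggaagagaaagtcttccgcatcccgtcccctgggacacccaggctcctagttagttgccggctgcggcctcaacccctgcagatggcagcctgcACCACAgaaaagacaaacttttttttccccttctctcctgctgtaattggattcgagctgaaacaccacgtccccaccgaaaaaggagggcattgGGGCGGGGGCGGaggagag
Timp1 (chrX:20869916-20870165, plus strand): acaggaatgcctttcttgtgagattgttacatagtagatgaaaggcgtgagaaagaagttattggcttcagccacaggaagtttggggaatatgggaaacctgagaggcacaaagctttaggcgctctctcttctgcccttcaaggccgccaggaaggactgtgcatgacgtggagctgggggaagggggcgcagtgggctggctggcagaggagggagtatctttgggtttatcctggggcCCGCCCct
Adamts14 (chr10:61273420-61273669, minus strand): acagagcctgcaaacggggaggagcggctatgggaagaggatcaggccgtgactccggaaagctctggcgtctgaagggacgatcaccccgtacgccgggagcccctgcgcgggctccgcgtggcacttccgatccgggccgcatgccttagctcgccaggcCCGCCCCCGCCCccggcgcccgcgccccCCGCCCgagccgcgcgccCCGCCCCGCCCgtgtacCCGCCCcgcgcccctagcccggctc

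The AP-1 site of Mmp13 began 35 bases before the start and its TATA box 16 bases before it, and in Mmp3 the AP-1 site began at 46 and the TATA box at 7 bases. Among the 10 cluster genes, 8 had TGANTCA and 7 had TATAAA, but none had GGGCGG. The other 26 genes with a promoter showed the reverse, with TGANTCA in 0, TATAAA in 3 and GGGCGG in 20 of them. Over all 21045 protein-coding promoters of this length, 6.17% held TGANTCA, 7.69% TATAAA, 43.1% GGGCGG and 12.2% TGTGGT. The TGTGGT core was present in 4 of the cluster genes, Mmp13 among them, and in 2 others, 1 of which was Mmp14. The Adamts14 promoter had 6 GC boxes, a pair of which shared 1 base. The median number of CpG dinucleotides was 1 in the cluster promoters (range 0 to 7), 15 in the other promoters (range 1 to 39) and 10 in all protein-coding promoters. These matches describe the letters of the promoters and do not show that a factor was bound.

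**Figure D1:**
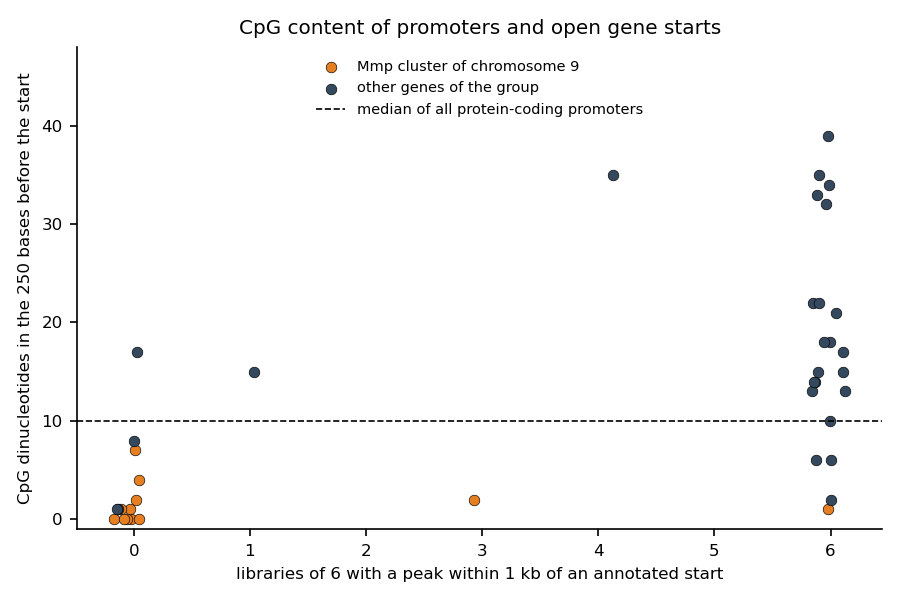
Each point is a promoter, placed by the number of libraries (0 to 6) with a peak summit within 1 kb of an annotated start of its gene and by the CpG dinucleotides in the 250 bases before the start; points are spread sideways for clarity. Promoters of the Mmp cluster on chromosome 9 all have at most 7 CpGs and sit at 0 libraries except those of Mmp27 (3 libraries) and Mmp13 (6 libraries).

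A gene start was called open where a peak summit lay within 1 kb of it. Of the 36 genes with an annotated start, 21 were open in all 6 libraries, 12 in none and 3 (Adamts3, Adamts18 and Mmp27) in some. The DOX libraries had 22, 23 and 21 open starts, and the PBS libraries had 23, 22 and 23, so the groups overlapped. The 22 promoters of the genes that were open in every library had a median of 16 CpGs, and the 14 promoters of those open in none had a median of 1. Most of these 14 belonged to the Mmp cluster of chromosome 9, so the contrast largely restates that locus. The others were those of Adamts13, Adamtsl2 and Mmp21, with 1, 8 and 1 CpGs, and of Mmp25. There were exceptions on both sides. Mmp13 was open in all 6 libraries with 1 CpG, and so was Timp4 with 2, while Mmp25, the gene of a lipid-anchored MMP known from neutrophils, was open in none with 17. With either end of the gene span counted, so that all 51 genes could be scored, 32, 33 and 31 genes had an open end in the DOX libraries and 34, 33 and 33 in the PBS libraries. The means were 32 ± 1.00 in DOX and 33.3 ± 0.577 in PBS (SD, n = 3 each), against 56.8% to 57.2% of all protein-coding genes per library, which compares with 60.8% to 66.7% of these 51. In total, 31 genes had an open end in every library and 16 in none, and the remaining 4 were Adamts3, Adamts18, Mmp8 and Mmp27. Adamts20 and Mmp23, among the 16, still had an open annotated start in every library, because that start is not the end of the span. Adamts13, the protease that trims von Willebrand factor, was open only at its far end, by a peak 278 to 344 bp beyond its span that was assigned to its neighbour Cacfd1.

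The strongest start in every library was that of Adamts1, a protease that cuts versican and aggrecan. Those of Mmp14, the membrane-bound MMP that activates the precursor of MMP2, of Adamts2, the main procollagen N-proteinase, and of Adamts9, which cuts versican, came next and lay close together. A peak's rank is its place in the library's list, with 1 the strongest. The best peak at the Adamts1 start ranked 2330, 2115 and 2153 in the DOX libraries and 2065, 2106 and 1772 in the PBS libraries. At the Mmp14 start the ranks were 4222, 3948 and 3928 in DOX and 3900, 3612 and 3083 in PBS. In both genes every DOX library ranked the start weaker than every PBS library, by margins that were small: the shift on the scale defined below was -0.05 ± 0.0682 (SE) for Adamts1 and -0.0729 ± 0.0661 (SE) for Mmp14, with limma adjusted p = 0.792 and 0.671. With the background pileup as a covariate both signs turned, to 0.0063 and 0.0092. The Adamts2 start had ranks of 2408, 3152 and 3175 in DOX and 6028, 2752 and 5325 in PBS, and the Adamts9 start 3611, 4413 and 2719 in DOX and 3881, 3907 and 4630 in PBS; both overlapped. Weakest by mean rank among the starts open in all 6 libraries was that of Adamts20, a proteoglycan-cutting member, with 38639, 39302 and 34455 in DOX and 29678, 46053 and 50465 in PBS.

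**Figure D2:**
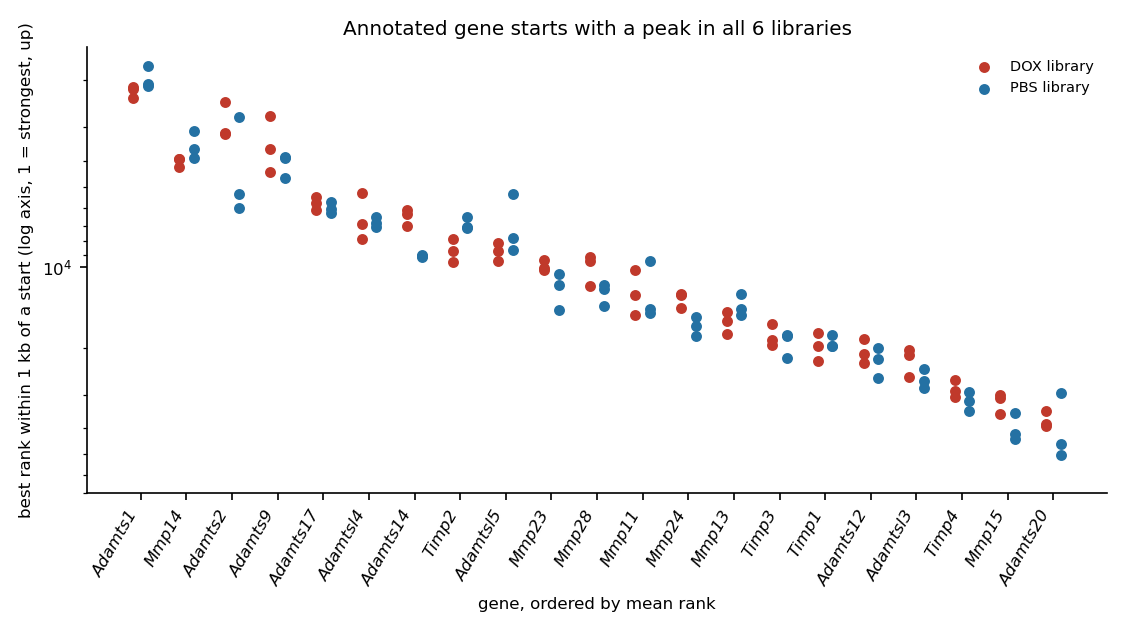
For the 21 genes with an annotated start open in all 6 libraries, the rank of the strongest peak within 1 kb of a start is plotted for each library on a log axis with strong peaks at the top; DOX libraries are left and PBS libraries right within each gene. Ranks run over a wide range between genes, from Adamts1 at 1772 to 2330 down to Adamts20 at 29678 to 50465, while the groups lie close together within a gene.

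Peaks were spread very unevenly over the genes. Of the 51, 44 had a peak in at least 1 library and 42 in every library. The list of DOX replicates 1, 2 and 3 held 287, 280 and 267 peaks at these genes, and that of PBS replicates 1, 2 and 3 held 288, 277 and 283. The groups overlapped, with 0.425% ± 0.0155 of the list in DOX and 0.432% ± 0.0084 in PBS (SD, n = 3 each). The genes make up 0.236% of protein-coding genes and 0.412% of the summed length of gene spans. The 5 genes with most peaks, Adamts2, Adamts9, Adamtsl3, Adamts17 and Adamts1, held 36.6% of all these peaks. Within the limit of 100 kb the farthest assigned peak lay 95005 bp from Adamts15, and the nearest summit beyond it was 107870 bp from Adamts5.

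**Figure D3:**
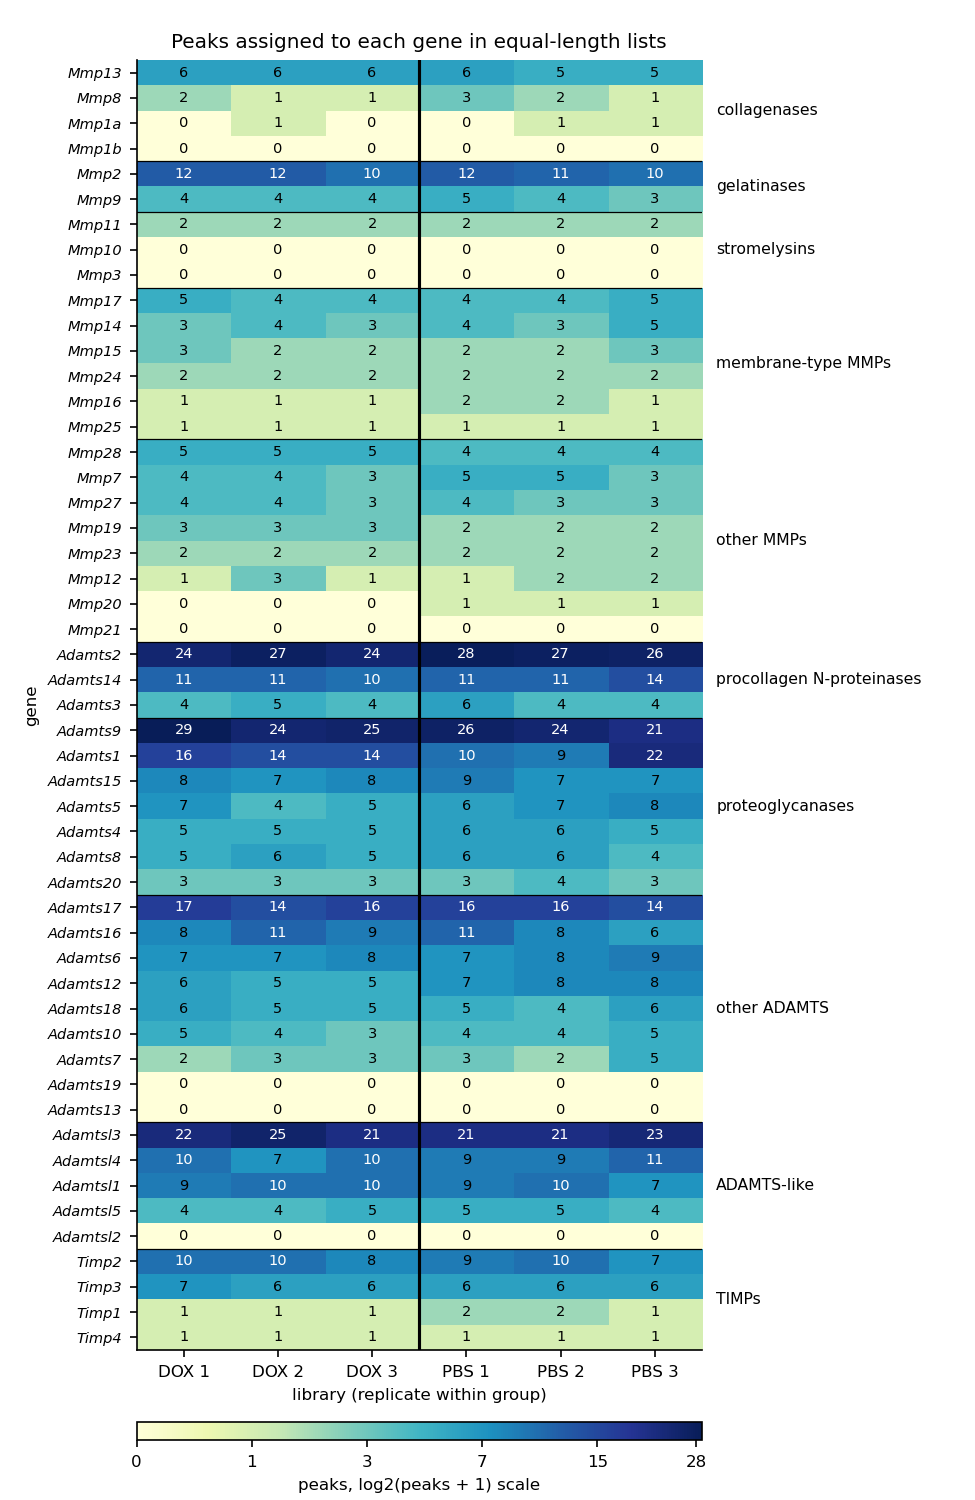
Number of peaks assigned to each of the 51 genes (rows, grouped by the role of the protein) in each of the 6 equal-length lists (columns, DOX left of the line and PBS right of it); colour runs on a log2(peaks + 1) scale and the number is printed in each cell. Mmp19 and Mmp28 have 1 peak more in every DOX library than in every PBS library, Adamts12 has fewer, and 7 genes are at 0 throughout.

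Adamts2 (chromosome 11, 50602085 to 50807573) had 24, 27 and 24 peaks in DOX and 28, 27 and 26 in PBS. Adamts9 (chromosome 6, 92772699 to 92944450) had 29, 24 and 25 in DOX and 26, 24 and 21 in PBS. Adamtsl3 (chromosome 7, 82335399 to 82614450), which has the matrix-binding part of an ADAMTS protein without the protease, had 22, 25 and 21 in DOX and 21, 21 and 23 in PBS. In all of them the groups overlapped. Adamts17, of the microfibril-related branch, had 17, 14 and 16 in DOX and 16, 16 and 14 in PBS. Adamts1 had 16, 14 and 14 in DOX and 10, 9 and 22 in PBS, where the shallowest library was the high one. Without PBS replicate 3, Adamts1 was thus higher in every DOX library. With overlapping peaks of all libraries merged into regions, Adamts1 had 15, 13 and 14 in DOX and 10, 9 and 14 in PBS. The 22 peaks of PBS replicate 3 were therefore 14 regions. Next came Adamts14 with 11, 11 and 10 in DOX and 11, 11 and 14 in PBS, and the gelatinase gene Mmp2 with 12, 12 and 10 in DOX and 12, 11 and 10 in PBS. Adamtsl4, whose product binds fibrillin microfibrils, had 10, 7 and 10 in DOX and 9, 9 and 11 in PBS. As merged regions Adamtsl4 had 7, 7 and 6 in DOX and 6, 6 and 6 in PBS. Adamts14 had 11, 11 and 10 merged regions in DOX and 11, 11 and 11 in PBS. The protease-free Adamtsl1 had 9, 10 and 10 in DOX and 9, 10 and 7 in PBS. Timp2, the tenth gene by mean number, had 10, 10 and 8 in DOX and 9, 10 and 7 in PBS. In none of the 10 genes did the peak numbers of the groups separate.

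At the other end, 7 genes had no peak in any equal-length list: Adamts13, Adamts19, Adamtsl2, Mmp1b, Mmp3, Mmp10 and Mmp21. Adamts13, Mmp1b, Mmp10 and Mmp21 had none in the full deposited lists either. Mmp3 had 2, 1 and 1 in the deposited lists of DOX and 1, 1 and 0 in those of PBS. An absent peak says only that the region was below the threshold of that list.

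Peak numbers that did not overlap between the groups were seen in 3 of the 36 genes averaging at least 2 peaks. Mmp19, a secreted MMP, and Mmp28, also called epilysin, were higher in DOX, so 2 of 36, where 2.74% of the 8793 genes with as many peaks showed this. Adamts12, a protease of cartilage oligomeric matrix protein, was the 1 lower gene, against 2.3% of all such genes. Mmp19 (chromosome 10, 128790910 to 128800827) had 3, 3 and 3 peaks in DOX and 2, 2 and 2 in PBS. The third peak was not the same in all DOX libraries: it was a region upstream of the gene (128780294 to 128780598) in replicates 1 and 2 and a region inside it (128797832 to 128798388) in replicate 3. Mmp28 (chromosome 11, 83440768 to 83463040) had 5, 5 and 5 in DOX and 4, 4 and 4 in PBS. Here the additional peak was the same region in every DOX library, at the far end of the gene (83441350 to 83441550). Adamts12 (chromosome 15, 11064773 to 11349232) had 6, 5 and 5 in DOX and 7, 8 and 8 in PBS. When merged regions were counted in place of peaks, Mmp19 and Mmp28 stayed apart but Adamts12 did not. With lists of the strongest 32731 peaks the groups of all 3 genes overlapped, while Adamts14 and Adamtsl3 were higher and Adamts3 lower in every DOX library. Mmp28 overlapped when a peak counted for every gene tied as nearest. By limma on log2(peaks + 0.5), Mmp19 and Mmp28 were called, with 98 of 8793 genes called in all; neither gene had any spread within a group. With each gene's spread raised to that of genes with similar numbers 0 genes were called, and 232 of all genes had an unadjusted p under 0.05 in that fit. Among genes with lower means, Mmp20, the enamel protease gene, had 0, 0 and 0 in DOX and 1, 1 and 1 in PBS.

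Regions listed after only 1 of the treatments were few. The peaks of all libraries merged into 78613 regions, of which 334 were assigned to these genes. Of the 334, 4 (1.20%) were in every DOX list and absent from the PBS lists, against 0.792% of all regions, and 1 (0.299%) was in every PBS list and absent from the DOX lists, against 0.303% of all regions. The DOX regions lay at the far end of Mmp28, inside Adamtsl3 (chromosome 7, 82341286 to 82341765), and 2 outside Adamts1 (chromosome 16, 85736583 to 85737056 and 85779911 to 85780129). All were weak: the Mmp28 region ranked 61674, 58232 and 49463 in the DOX libraries, and the stronger of the Adamts1 pair ranked 57371, 53544 and 54271. All 4 were also in the full deposited list of PBS replicate 2, at ranks beyond the 65462 compared. The PBS region lay inside Mmp20 (chromosome 9, 7630550 to 7630854), ranked 58357, 64664 and 55586 in PBS, and was in the deposited lists of all DOX libraries at ranks 66508, 88149 and 88598. All 5 regions thus stood in the weaker part of the lists.

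Most open regions of these genes were shared. Of the 334 regions, 212 (63.5%) had a peak in all 6 libraries, compared with 62.5% of all regions, and they belonged to 42 genes. By place, 12.3% of the 334 lay within 1 kb of a gene end, 55.1% elsewhere inside a gene span and 32.6% outside, where all assigned regions had 17.8%, 49.8% and 32.4%. Exons, introns and untranslated regions were not told apart. To compare strength, the 49098 shared regions were ranked in each library and the ranks turned into normal scores, so that a difference of 1 is 1 SD of the spread over regions. A positive shift means that a region ranked stronger in DOX than in PBS.

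No shared region at these genes passed the test of the rank shift. By limma with Benjamini-Hochberg adjustment over all shared regions, 0 of 49098 were called in either direction (0.0%), with 6440 at an unadjusted p under 0.05. For the 212 regions the adjusted p ran from 0.0931 to 0.999, and 23 were higher and 13 lower at an unadjusted p under 0.05, or 10.8% and 6.13%, where all regions had 7.03% and 6.09%. The median shift was 0.0049 for the 212 and -0.0004 for all shared regions, and the median standard error was 0.12 in both. Every DOX library ranked the region stronger than every PBS library in 26 of the 212 (12.3%) and weaker in 13 (6.13%), against 10.9% and 7.9% of all shared regions. Both shares were near those of all regions. By role, the median shift was highest for the stromelysin genes (0.128, with both regions at Mmp11) and the ADAMTS-like genes (0.108, 34 regions), and lowest for the collagenase genes (-0.0798, 6 regions).

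**Figure D4:**
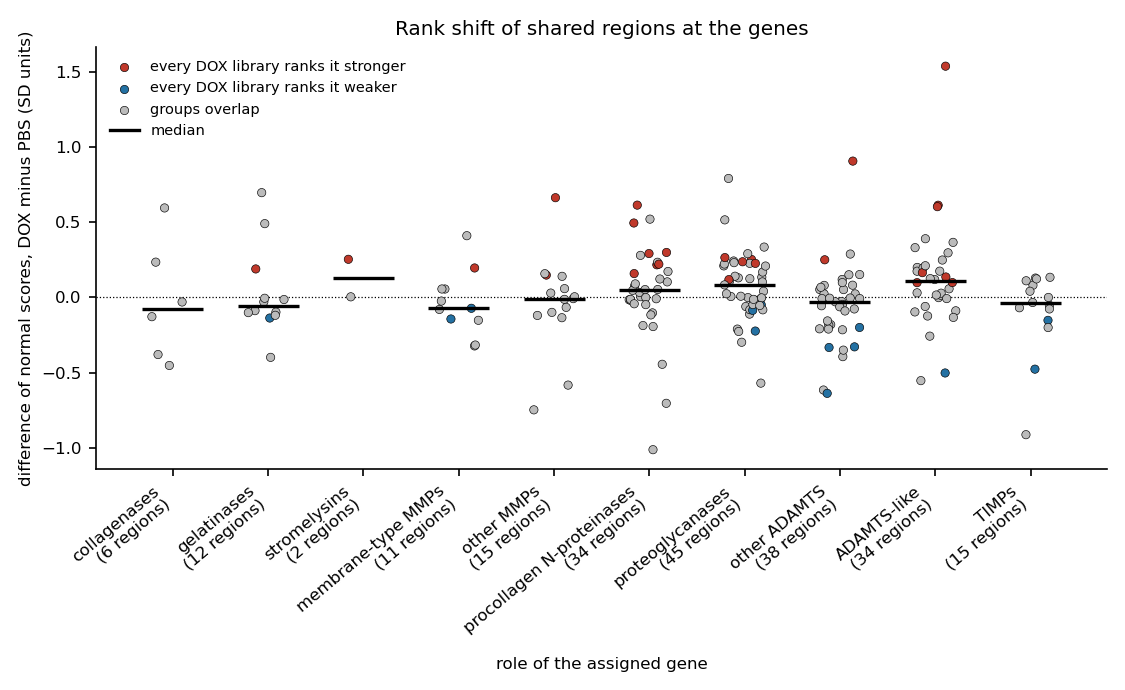
Each point is a region with a peak in all 6 libraries, placed by the role of its gene and by its rank shift (difference of normal scores, DOX minus PBS, in SD units over regions); red marks regions that every DOX library ranks stronger than every PBS library, blue those ranked weaker, grey the rest, and bars are medians. Medians lie between -0.0798 and 0.128, and the widest shifts, from -1.01 at Adamts2 to 1.54 at Adamtsl3, belong to single regions.

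The gene with the lowest adjusted p was Adamts14 (chromosome 10, 61197112 to 61273419, minus strand), which encodes a protease that removes the amino-terminal propeptide of fibrillar procollagens. It was singled out after its values were seen. Of its 11 regions 10 were shared, and 5 of these were ranked stronger by every DOX library than by every PBS library, while 0 were ranked weaker. Of the 2675 genes with at least 5 shared regions, 43 (1.61%) had as high a share of such regions. The lowest p belonged to a region inside the gene, 57075 bp from the start (61215799 to 61217165), with ranks of 6375, 5583 and 3331 in DOX and 10443, 9318 and 12735 in PBS. Its shift was 0.494 ± 0.0867 (SE; limma, adjusted p = 0.0931), and the region passed with PBS replicate 1 left out (limma, adjusted p = 0.0453) and with the replicate number as a block (limma, adjusted p = 0.0396); over 14 alternatives the adjusted p ran from 0.0396 to 0.612. The open start itself, whose promoter with 6 GC boxes is printed above, ranked 7025, 6109 and 6325 in DOX and 9198, 9064 and 8993 in PBS (shift 0.216 ± 0.0635, SE; limma, adjusted p = 0.177). DOX libraries were again all the stronger ones.

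A region upstream of Adamts14, 4792 bp before the start (61277853 to 61278871), was among the strongest peaks of every library. It ranked 296, 270 and 225 in DOX and 410, 693 and 676 in PBS (shift 0.291 ± 0.083, SE; limma, adjusted p = 0.169). The other regions of this kind lay 1436 bp upstream, with ranks of 28572, 23255 and 20139 in DOX and 33011, 36900 and 39877 in PBS, and 73497 bp into the gene, with 4284, 2833 and 2340 in DOX and 5362, 5762 and 4929 in PBS. The 5 remaining shared regions overlapped between the groups, with shifts from -0.0198 to 0.279. The number of regions stronger in every DOX library was also 5 with the deposited lists and when ranked by fold enrichment, and 4 of 7 with lists of 32731 peaks. The number of peaks at Adamts14 overlapped between the groups, except in the lists of 32731 peaks. Depth differed between the groups as given above. With the background pileup as a covariate the shift was 0.263 for the region with the lowest p, 0.339 for the one 1436 bp upstream and 0.173 for the one 4792 bp upstream. The other 2 were 0.297 and 0.224, and the adjusted p of the 5 then ran from 0.585 to 0.735 (limma). The related procollagen proteases had few such regions. At Adamts2, 1 of 21 shared regions was stronger in every DOX library, where 10.9% of all shared regions were. Its shifts were positive in 10 regions and negative in 11, with a median of -0.0013. At Adamts3, which also processes the lymphatic growth factor VEGF-C, 1 of 3 was stronger. At both genes 0 were weaker, against 7.9% of all shared regions.

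**Figure D5:**
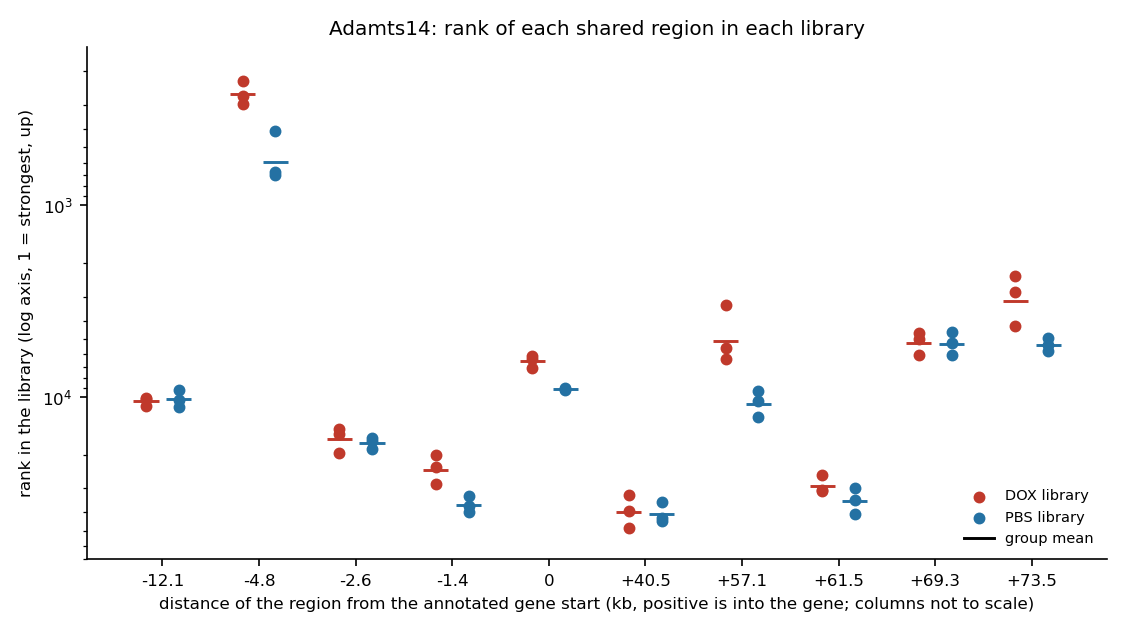
Rank of each of the 10 shared regions of Adamts14 in each library, on a log axis with strong peaks at the top; columns are ordered by distance from the annotated start in kb (negative is upstream), points are libraries (DOX left, PBS right) and bars are group means. The groups do not overlap at -4.8, -1.4, 0, +57.1 and +73.5 kb, with the DOX libraries stronger at each, and overlap at the other 5.

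Adamtsl3 also had 5 regions of this kind, out of 19 shared regions, and 0 weaker in every DOX library. Over all shared regions the shares were 10.9% and 7.9%. Among them was the region with the largest shift of all 212 (82396882 to 82397386, inside the gene), which ranked 40187, 42632 and 38779 in DOX and 64530, 64445 and 51951 in PBS. Its shift was 1.54 ± 0.413 (SE; limma, adjusted p = 0.154). Adamts16, a member expressed in kidney and gonad, had the second largest, inside the gene (chromosome 13, 70789031 to 70789372), with ranks of 46358, 50261 and 47558 in DOX and 63260, 63088 and 53392 in PBS (shift 0.906, limma adjusted p = 0.363). The third was outside Adamts15, a versican-cutting member (chromosome 9, 30896651 to 30897141), with 34857, 44115 and 41874 in DOX and 32353, 62260 and 59187 in PBS, which overlapped (shift 0.79, limma adjusted p = 0.452). This shift was 1.39 without PBS replicate 1 (limma, adjusted p = 0.0887), 0.361 without PBS replicate 2 and 0.0731 with the background pileup as a covariate. At Adamts15 all 6 shared regions had a positive shift, and 2 were stronger in every DOX library, against 10.9% of all shared regions.

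The lowest shifts were at Adamts2, Timp2 and Mmp27. A region inside Adamts2 (chromosome 11, 50664770 to 50665204) ranked 63317, 40312 and 56730 in DOX and 34774, 41383 and 47024 in PBS (shift -1.01, limma adjusted p = 0.30), and the shift was -0.549 without DOX replicate 1. A region outside Mmp27 (chromosome 9, 7603912 to 7604555) ranked 54165, 48999 and 63049 in DOX and 49107, 48054 and 43936 in PBS (shift -0.748, limma adjusted p = 0.418). Without DOX replicate 3 this shift was -0.371, and with the background pileup as a covariate -0.144. The groups overlapped in both, in the Mmp27 region through a DOX rank of 48999 and a PBS rank of 49107. Adamts6, a protease tied to fibrillin microfibrils and heart development in mice, had a negative shift in all 7 shared regions. Of these, 3 were weaker in every DOX library, where 7.9% of all shared regions were. The clearest of these, outside the gene (chromosome 13, 104518134 to 104518690), ranked 28019, 30186 and 33499 in DOX and 25093, 25403 and 22562 in PBS (shift -0.334 ± 0.124, SE; limma, adjusted p = 0.265), with a shift of -0.148 once the background pileup was a covariate. Mmp14 likewise had a negative shift in all 3 shared regions, with 2 weaker in every DOX library, against the same 7.9%. None of the 3 had an unadjusted p under 0.05. Adamts6 and Mmp14 were singled out after their values were seen.

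Shifts differed in direction among the other MMP genes. Mmp2, which MMP14 activates, had 9 shared regions, of which 1 inside the gene (chromosome 8, 92846705 to 92847863) ranked 13152, 15523 and 14589 in DOX and 15636, 20474 and 17959 in PBS, so stronger in every DOX library. A region outside it (92818105 to 92818597) went the other way, with 15507, 17033 and 16736 in DOX and 14695, 15096 and 12689 in PBS. Mmp9, the other gelatinase, had 3 shared regions, all with a negative shift and overlapping groups, and no open gene end in any library. At Mmp11, a stromelysin secreted in active form, the region inside the gene (chromosome 10, 75929902 to 75931083) ranked 10766, 10038 and 9744 in DOX and 13815, 15428 and 13501 in PBS (shift 0.253 ± 0.0679, SE; limma, adjusted p = 0.154). The start of Mmp24, a brain-enriched membrane MMP, was also stronger in every DOX library, with 12581, 14217 and 12698 in DOX and 16655, 18128 and 15331 in PBS (shift 0.195 ± 0.0739, SE; limma, adjusted p = 0.274).

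All 4 TIMP genes had an open start in every library. Timp2, the inhibitor that also takes part in activating MMP2 at the cell surface, ranked 8694, 7845 and 9561 at its start in DOX and 7068, 6482 and 7142 in PBS. Every DOX library was weaker there, with a shift of -0.153 ± 0.0654 (SE; limma, adjusted p = 0.33). Its region 17445 bp upstream (chromosome 11, 118372648 to 118373338) had the second lowest shift of the 212, with 58529, 58272 and 59847 in DOX and 43657, 36983 and 60076 in PBS, where the groups overlapped through PBS replicate 3 (shift -0.913, limma adjusted p = 0.369); the shift was -0.586 without PBS replicate 2 and -1.92 with the background covariate. Timp3, which is held in the matrix and inhibits ADAMTS proteases as well as MMPs, had a start with 19580, 18782 and 16358 in DOX and 17948, 18033 and 21871 in PBS, which overlapped. A weaker Timp3 region 2488 bp into the gene (chromosome 10, 86302796 to 86303074) ranked 47083, 41476 and 41018 in DOX and 37498, 36248 and 33265 in PBS (shift -0.478 ± 0.216, SE; limma, adjusted p = 0.358). Over the 15 shared TIMP regions 6 shifts were positive and 9 negative, 0 regions were stronger and 2 weaker in every DOX library, against 10.9% and 7.9% of all shared regions, and the median shift was -0.0344.

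Timp4, the inhibitor with the most restricted expression, had a single peak in every library, at its start, with ranks of 30732, 29167 and 26443 in DOX and 31784, 34634 and 29327 in PBS. Timp3 had 7, 6 and 6 peaks in DOX and 6, 6 and 6 in PBS. Timp1 (chromosome X, 20870166 to 20874737), the inducible inhibitor, lies inside the span of the neuronal gene Syn1, and this decided its number of peaks, 1, 1 and 1 in DOX and 2, 2 and 1 in PBS. A peak stood at the Timp1 start in all 6 libraries, ranked 17626, 19674 and 22420 in DOX and 19715, 18013 and 19753 in PBS. Its summit fell 11, 25 and 28 bp outside the Timp1 span in DOX and went to Syn1, as did that of PBS replicate 3, 37 bp outside. In PBS replicates 1 and 2 it fell 7 and 2 bp inside and went to Timp1.

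The Mmp cluster on chromosome 9, from Mmp13 at 7272514 to Mmp7 at 7699585, was largely without peaks at its gene ends. Of its 10 genes, 7 had no open end in any library: Mmp1a, Mmp1b, Mmp3, Mmp7, Mmp10, Mmp12 and Mmp20. Mmp13, the main interstitial collagenase of the mouse and a gene of cartilage and bone, was the exception. Its start, with the AP-1 site and the TATA box printed above, ranked 15842, 14771 and 17741 in DOX and 14295, 12653 and 15118 in PBS, which overlapped (shift -0.129 ± 0.0751, SE; limma, adjusted p = 0.482; -0.0827 without DOX replicate 3). Mmp13 had 6, 6 and 6 peaks in DOX and 6, 5 and 5 in PBS. Mmp27 had a weak peak at its start in DOX replicates 1 and 2 and PBS replicate 1, at ranks 62920, 60646 and 62463. Mmp8, the neutrophil collagenase gene, had one at a gene end in PBS replicates 1 and 2 alone, at ranks 62462 and 64663. Mmp7, matrilysin, had 4, 4 and 3 peaks in DOX and 5, 5 and 3 in PBS, and Mmp12, the macrophage elastase gene, had 1, 3 and 1 in DOX and 1, 2 and 2 in PBS. Mmp1a had a single peak in DOX replicate 2 and in PBS replicates 2 and 3. The 13 shared regions of the cluster had a median shift of -0.12, and in 0 of them did the groups not overlap. Over all shared regions, 10.9% were stronger and 7.9% weaker in every DOX library.

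A list of 58 genes that act with these enzymes was read beside them: activators such as Furin and the plasminogen system, meprins and ADAMs, collagens, proteoglycans, fibrillins and lysyl oxidases. Of its 45 genes averaging at least 2 peaks, 1 was higher in every DOX library and 0 lower, where all such genes had 2.74% higher and 2.3% lower. That gene was Tll2, a tolloid-like protease related to the procollagen C-proteinase, with 11, 10 and 10 peaks in DOX and 9, 8 and 8 in PBS. The list had 320 shared regions, of which 0 were called by limma, with 23 higher and 23 lower at an unadjusted p under 0.05, against 7.03% and 6.09% of all regions. The genes with most peaks were Ltbp1, a latent TGF-beta binding protein, with 32, 36 and 34 in DOX and 33, 30 and 32 in PBS, then Fbn1, fibrillin, with 24, 25 and 29 in DOX and 29, 27 and 30 in PBS, and Adam12, with 27, 27 and 29 in DOX and 25, 26 and 30 in PBS. All 3 overlapped between the groups.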

How the data were processed

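The members and gene lists were chosen with earlier results of these data known. Groups and replicate numbers came from the sample titles; the labels do not say how many mice a library holds, so a p-value here reflects the spread between libraries, part of which may be technical. The authors deposited a narrowPeak list per library, on build mm10 per the submitters' processing notes, which name Trim Galore 0.6.6, Bowtie2 2.4.5, Picard 2.10.9 and MACS2 2.2.7.1 among their tools. Caller settings, read filters and any shift for the transposase cut are not stated in the labels. For each peak the authors deposited a score, a fold enrichment (a ratio to background), a −log10 p and a −log10 q from their peak caller, and the distance of its summit from its start, another kind of value. They are values of single peaks within a library and served only to rank peaks and to solve the background pileup, which assumes the Poisson model of the caller. Pileups came out whole to within 0.05 in 100% of the peaks used.

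Chromosomes 1 to 19 and X were used, and 13 to 19 peaks on chromosome Y were dropped from each list. The strongest 65462 peaks per library were kept. Genes came from a RefSeq table of GRCm38.p6 without strand or exons; strand, starts and sequences came from the RefSeq promoter table, which covers 17274 protein-coding genes. A summit inside several spans went to the shortest. Overlapping peaks were merged into regions. Normal scores of the ranks of regions shared by all 6 libraries were fitted with limma 3.58.1 (R 4.3.3; trend and robust moderation, no covariate) over all such regions with Benjamini-Hochberg adjustment, and a call needed an adjusted p under 0.05. Peak numbers per gene, over genes with a mean of at least 2, and regions listed in 1 group got no p: 3 libraries against 3 cannot give a permutation p below 0.10. The fit was tested on simulated data. Named were all regions past the test, all genes with non-overlapping peak numbers or with a region listed in 1 group, the 10 genes with most peaks, all Timp and Mmp cluster genes, the 3 highest and 3 lowest rank shifts and the genes with no peak; other regions named lay in non-overlapping or gene-start positions and were chosen after their values were seen.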

Additional observations from a re-analysis of the deposited data

How the results depend on the processing

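Absence of a peak is set by each list's depth, which limits every count here. The deposited lists run from 65462 peaks in PBS replicate 3 to 100642 in DOX replicate 3, so counts from them are not at equal length. Member regions called by limma were 0 in the report and 1, at Adamts14, with the replicate block and without PBS replicate 1 (0 to 1 over left-out libraries). The same replicate numbers did not pair the samples: correlations of same-numbered deviations were 0.111, -0.1 and 0.0422. Over all regions the calls were 48 with the replicate block, 2 with the strongest 32731 peaks and 0 to 84 with a library left out, with 84 without PBS replicate 1, 3 and 2 without DOX replicates 1 and 2 and 1 without PBS replicate 2; they were 0 under the other alternatives. Non-overlapping member regions numbered 38 to 46 stronger and 18 to 31 weaker with a library left out, as fewer libraries have to separate; all regions then had 15.05% to 18.3% and 11.5% to 14.8%. With 32731 peaks, 18 member regions (16.1%) were stronger, against 10.7% of all regions. In those lists 8 (7.14%) were weaker, against 8.95% of all regions. Stronger regions at Adamts14 were 5 to 6 without a library. Genes with higher peak numbers in DOX were 4 with the deposited lists, 1 when tied genes all counted, 0 with limma at raised spread and 2 to 3 with a library left out. Lower genes were 2 with the deposited lists and with all genes with a peak, 0 with merged regions and with either limma fit, and 1 to 3 with a library left out, 2 without DOX replicate 1 or 2 and 3 without PBS replicate 3. Regions listed only in DOX were 11 with the deposited lists, 1 with 32731 peaks and 5 to 11 with a library left out, 8 without DOX replicate 2 and 11 without PBS replicate 1; those only in PBS were 0, 0 and 1 to 3, with 2 without DOX replicate 1, DOX replicate 2 or PBS replicate 1 and 3 without PBS replicate 3. The difference in open gene ends, DOX minus PBS, was -1.33, and 0.333 with the deposited lists, -0.333 with 32731 peaks and -1.83 to -0.833 with a library left out. The difference in share of peaks was -0.0071 percentage points, 0.0055 by summed width and -0.014 to 0.0013 with a library left out. The cause of these changes was not tested. For peak numbers per gene and for regions listed in 1 group, most alternatives are given without the share of all genes or regions. Those counts therefore cannot be set against a background. The shifts of 24 named regions, most of them picked for their values, were read from the refits of all shared regions. Those at the starts of Adamts1 and Mmp14 changed sign, to 0.0063 and 0.0092 with the background pileup as a covariate. With that covariate the shift was 2.61 at Adamtsl3 and 1.69 at Adamts16, and with the deposited lists 0.86 and 0.514. Shifts nearer 0 with the deposited lists were -0.576 at Adamts2, -0.456 upstream of Timp2 and -0.406 at Mmp27.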
